A study of Mus musculus with 6 samples.

Results

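Eosinophils and type 2 helper T cells are drawn into tissue by a small group of chemokines, and 7 genes of this group were followed in mouse liver tumors: the ligand genes Ccl11, Ccl24, Ccl17 and Ccl22, the receptor genes Ccr3 and Ccr4, and Prg2, for a granule protein of eosinophils. They were taken by name from the 750 immune-related genes of a NanoString panel, which counts RNA molecules with barcoded probes, and all 7 were on it. Type 2 cytokines such as IL-4 and IL-13 act through the transcription factor STAT6 and induce several of these ligands in macrophages, dendritic cells and stromal cells. Ccr3 is the receptor of CCL11 and CCL24 and is carried mainly by eosinophils. Ccr4 is the receptor of CCL17 and CCL22 and is carried by type 2 helper and regulatory T cells.

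The tumors arose from BNL-MEA, a mouse liver cancer line, placed under the liver capsule of BALB/c males that were 6 to 7 weeks old. The cells were stable clones selected with G418. Samples labelled PD-L1 came from clones transfected with a plasmid encoding PD-L1, which inhibits T cells through the receptor PD-1, and are called P1, P2 and P3 after their replicate numbers. Those labelled empty plasmid came from clones given the empty plasmid and are called E1, E2 and E3. The free text of the empty plasmid samples mentions PD-L1-expressing clones as well, while their titles and treatment labels do not. Clone and plasmid cannot be told apart. Whether each sample is a mouse of its own is not in the labels, so p-values measure the spread between these samples, which may be technical.

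The samples held 873503 to 1673104 recovered counts over the 750 genes and 72 to 109 counts over the 8 negative control probes. Cd274, the mouse gene for PD-L1, had log2 values of 6.17, 5.36 and 5.87 in P1, P2 and P3 and of 6.95, 5.32 and 7.43 in E1, E2 and E3 (limma adjusted p = 0.557). It was therefore not higher under its own label, and the groups are called by their labels throughout. No source used here says whether the plasmid's transcript holds the target of the Cd274 probe, so these values do not settle the labels. The leukocyte gene Ptprc lay between 8.38 and 9.61 in the 6 samples. The mean of 21 hepatocyte and plasma protein genes was 6.56, 5.95 and 9.01 in P1, P2 and P3. In E1, E2 and E3 it was 8.13, 11.45 and 10.13. P1 and P2 were thus the lowest and E2 and E3 the highest in liver transcripts, while P3 lay above E1.

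The comparison asked how these genes differed between tumors of the 2 plasmids. Ccl11 and Prg2 were higher in every sample labelled PD-L1 than in any labelled empty plasmid, with differences of the log2 means of 1.73 and 0.78 (3.32-fold and 1.71-fold). Ccl17 and Ccl24 had higher means in the same group, but their samples overlapped. Ccl22, Ccr3 and Ccr4 had means under the background limit, set 2 SD above the negative controls' mean, at 4.66 on the log2 scale. No member passed the test. With limma, an adjusted p under 0.05 was reached by 0 of the 541 genes tested (0%), and limma's voom on the recovered counts also called 0. An unadjusted p under 0.05 was reached by 92 genes (17%), of which 39 were higher in the PD-L1 group (7.21%), Ccl11 and Prg2 among them. Prg2 entered the test only through the PD-L1 group, as its mean in the empty plasmid group was 4.46. The groups did not overlap for 99 tested genes (18.3%), and 46 of these were higher in the PD-L1 group (8.5%).

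**Figure D1:**
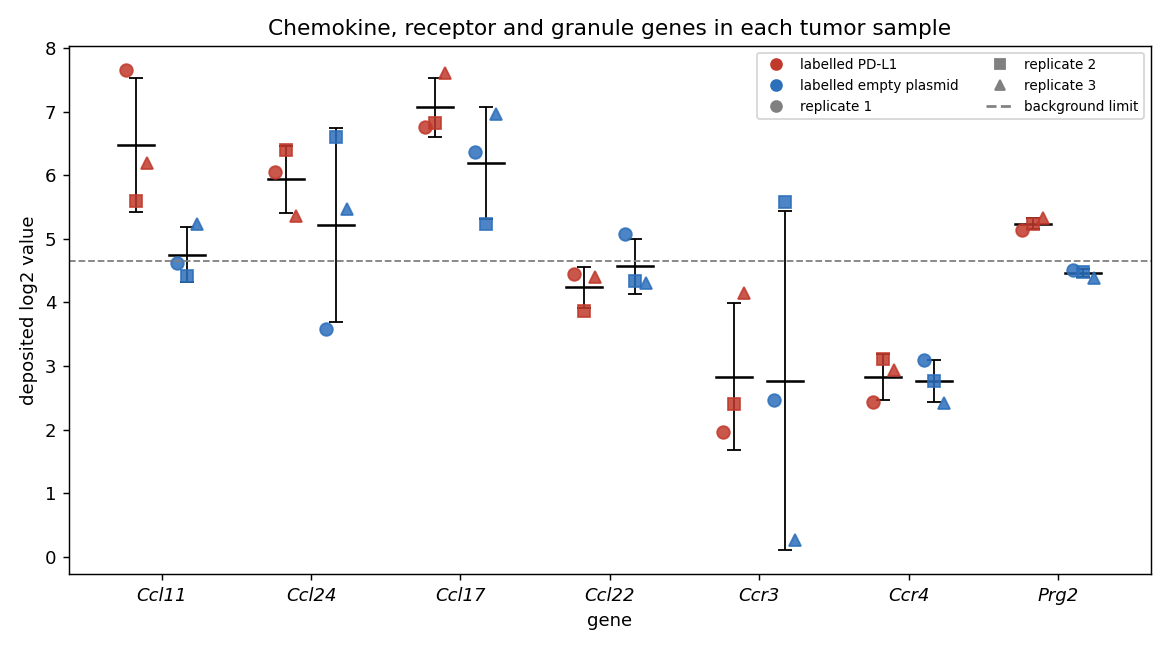
Deposited log2 value (vertical axis) of each of the 7 genes (horizontal axis) in the 3 samples labelled PD-L1 (red) and the 3 labelled empty plasmid (blue), with replicates 1 to 3 as circle, square and triangle. Bars give the mean ± SD and the dashed line the background limit of 4.66; only Ccl11 and Prg2 have groups that do not overlap.

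Ccl11 encodes eotaxin-1, an eosinophil attractant made by fibroblasts, epithelium and endothelium. Its log2 values were 7.66, 5.60 and 6.19 in P1, P2 and P3 and 4.62, 4.41 and 5.23 in E1, E2 and E3. P1 stood well above all other samples, and the gap between the groups, from 5.23 to 5.60, was small beside the range within the PD-L1 group. Ccl11 averaged 6.48 ± 1.06 in P samples and 4.75 ± 0.43 in E samples (SD, n = 3 each). The difference of 1.73 ± 0.58 (SE) had a 95% interval from 0.35 to 3.12 (limma, unadjusted p = 0.0217, adjusted p = 0.256). The two-sided exact permutation test gave p = 0.1, the smallest that 3 against 3 samples allow. Without P1 the difference was 1.14 (limma adjusted p = 0.334). The unadjusted limma p for Ccl11 was under 0.05 in 12 of 15 alternatives and reached 0.0999.

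The counts behind the Ccl11 values were 270, 57 and 87 in the samples labelled PD-L1. They were 41, 19 and 72 in the samples labelled empty plasmid, where E2 was not above the limit set by its own negative controls. Per 1000000 counts of the 750 genes, Ccl11 ran from 51.4 to 233.1 in the PD-L1 group and from 21.8 to 43.0 in the other, so the groups stayed apart on that scale. With the hepatocyte mean as a covariate the difference was 1.64 ± 0.86 (SE), with a limma adjusted p of 0.784. In tumor tissue measured in bulk, fewer cells that make a transcript and less transcript per cell cannot be told apart, here and for every gene that follows.

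Ccl24 encodes eotaxin-2, which in mice is made largely by macrophages. P1, P2 and P3 stood at 6.06, 6.40 and 5.36, and E1, E2 and E3 at 3.59, 6.61 and 5.47. The highest and the lowest of all 6 samples were therefore both in the empty plasmid group, which spread over 3.02 against 1.04 in the PD-L1 group. Ccl24 averaged 5.94 ± 0.53 and 5.22 ± 1.52 (SD, n = 3 each). The means differed by 0.72 ± 0.77 (SE), and the 95% interval of -1.13 to 2.57 held 0 (limma adjusted p = 0.674). Its direction rested on E1, where 20 counts were recovered and the value was not above the sample's own limit of 3.99: without that sample the difference was -0.10, and without E2 it was 1.41. With the hepatocyte mean as a covariate it was 1.57 (limma adjusted p = 0.784).

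Ccl17 encodes TARC, a ligand of CCR4 made by dendritic cells and other myeloid cells. It was measured at 6.76, 6.82 and 7.61 in P1, P2 and P3, from 133 to 234 counts. In E1, E2 and E3 it was measured at 6.37, 5.24 and 6.97, from 139, 34 and 242 counts. E3 lay above P1 and P2, and E2 was the lowest of all and the only sample not above its own negative control limit (5.44). The means were 7.07 ± 0.47 and 6.20 ± 0.88 (SD, n = 3 each). The difference was 0.87 ± 0.52 (SE), with a 95% interval from -0.37 to 2.11 (limma adjusted p = 0.445; two-sided exact permutation p = 0.3). It fell to 0.39 without E2, the sample with the highest hepatocyte mean. With the hepatocyte mean as a covariate the difference was 0.84 ± 0.77 (SE; limma adjusted p = 0.859).

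Ccl22 encodes MDC, the other ligand of CCR4, which activated dendritic cells and macrophages secrete. It stood at 4.45, 3.87 and 4.40 in P1, P2 and P3, and at 5.07, 4.33 and 4.31 in E1, E2 and E3. Only E1 and E3 were above the limit of their own negative controls, from 56 and 38 counts. The means were 4.24 ± 0.32 and 4.57 ± 0.43 (SD, n = 3 each), and the two-sided exact permutation test of the difference of -0.33 gave p = 0.6. When all 750 genes were fitted without a background limit, its 95% interval ran from -1.22 to 0.55 (limma adjusted p = 0.68). Without E1 the difference was -0.08.

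Ccl17 and Ccl22 lie close together on mouse chromosome 8, with Cx3cl1 as the only protein-coding gene between them in RefSeq's table of the assembly GRCm38.p6. The 250 bases before the start of each are shown because the 2 genes share a receptor and a locus, while Ccl17 was measured above background and Ccl22 largely was not. RefSeq's promoter table matched 4 of the 7 genes by symbol (Ccl17, Ccl22, Ccr3 and Ccr4). The Ccl17 window is chr8:94810203-94810452 and the Ccl22 window chr8:94745434-94745683, both on the plus strand of GRCm38.p6, a build that is RefSeq's and not stated by the study. Capitals mark matches to the STAT6 motif TTCNNNNGAA or to the shorter STAT motif TTCNNNGAA, searched on both strands together with TATAAA.
Ccl17: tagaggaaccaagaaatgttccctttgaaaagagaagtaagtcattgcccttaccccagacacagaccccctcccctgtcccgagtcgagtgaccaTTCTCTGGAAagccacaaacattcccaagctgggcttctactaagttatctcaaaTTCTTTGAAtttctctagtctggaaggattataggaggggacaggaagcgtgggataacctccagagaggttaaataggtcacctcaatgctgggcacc
Ccl22: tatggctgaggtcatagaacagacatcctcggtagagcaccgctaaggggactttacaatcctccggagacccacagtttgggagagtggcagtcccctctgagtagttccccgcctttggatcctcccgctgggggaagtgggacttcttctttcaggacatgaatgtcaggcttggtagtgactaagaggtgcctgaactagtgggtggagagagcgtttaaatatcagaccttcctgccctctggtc
The Ccl17 window held 1 match to the STAT6 motif and 1 to the shorter motif, which do not overlap, and the Ccl22 window held 0 of either. Among 32851 windows of this length in the table, 5.85% held the STAT6 motif and 7.02% the shorter one. The motif TATAAA, held by 12.4% of windows, had 0 matches in either window. The Ccr3 and Ccr4 windows, not shown, held 0 matches to any of these motifs. A match or its absence describes these letters and says nothing about binding in the tumors or about the measured levels.

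Prg2 encodes eosinophil major basic protein, a cytotoxic granule protein whose transcript is made mostly while eosinophils develop. Its values were 5.14, 5.23 and 5.33 in P1, P2 and P3 and 4.51, 4.48 and 4.39 in E1, E2 and E3. The groups were narrow and apart, with a gap from 4.51 to 5.14. The means were 5.24 ± 0.09 and 4.46 ± 0.06 (SD, n = 3 each). The difference of 0.78 ± 0.27 (SE) had a 95% interval from 0.12 to 1.43 (limma, unadjusted p = 0.027, adjusted p = 0.265). The two-sided exact permutation test gave p = 0.1, again the smallest possible. The unadjusted limma p for Prg2 ran from 0.0131 to 0.157 over 15 alternatives and stayed under 0.05 in 5 of them.

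Prg2 passed the background limit only through the samples labelled PD-L1, since the other group's mean of 4.46 lies under 4.66. Its values rested on 47, 44 and 48 counts in the PD-L1 group and 38, 20 and 40 counts in the other, and all samples but E2 were above the limit of their own negative controls. Counting error alone would give an SD of 0.21 and 0.26 in the 2 groups, more than the 0.09 and 0.06 observed. The exact Poisson 95% intervals, which cover counting error only, spanned 4.70 to 5.55 in P1 and 4.02 to 4.96 in E1, and these overlap. With the negative controls subtracted the difference was 1.23 (limma adjusted p = 0.35). With the hepatocyte mean as a covariate it was 0.82 ± 0.52 (SE; limma adjusted p = 0.784).

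**Figure D2:**
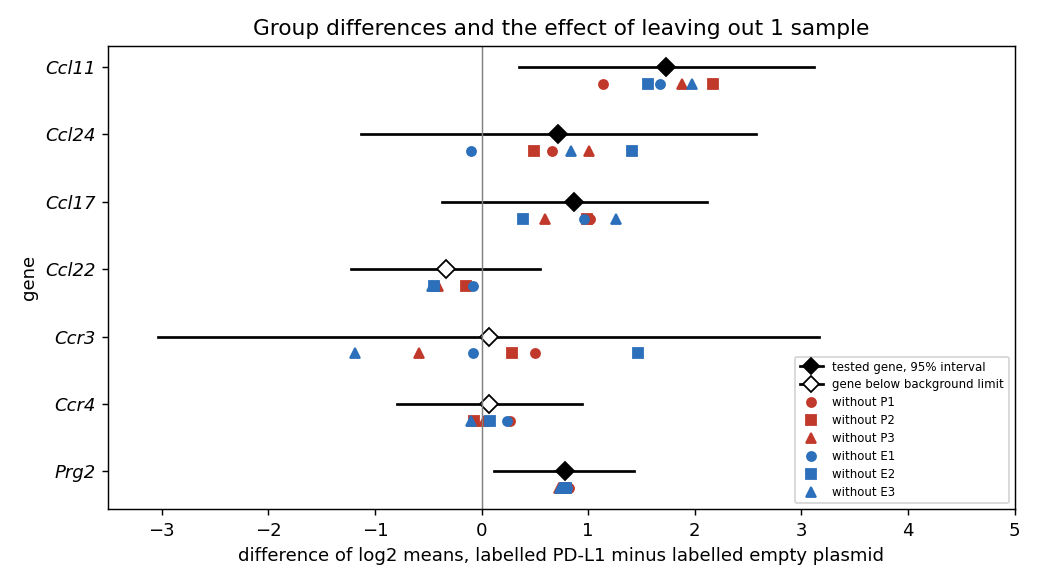
Difference of log2 means (horizontal axis, samples labelled PD-L1 minus samples labelled empty plasmid) for each gene (vertical axis), as diamonds with 95% limma intervals; open diamonds are genes under the background limit, fitted with all 750 genes. Small symbols give the difference without the sample named in the key, which ran from 1.14 to 2.17 for Ccl11, from 0.73 to 0.82 for Prg2 and from -0.10 to 1.41 for Ccl24.

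The receptor genes were at or near background. Ccr3 stood at 1.96, 2.40 and 4.15 in P1, P2 and P3, from 5, 6 and 21 counts. It stood at 2.46, 5.58 and 0.26 in E1, E2 and E3, from 9, 43 and 2 counts. E2 was the only sample above the limit of its own negative controls, 5.58 against 5.44, and its Poisson interval of 5.11 to 6.01 lay above those of the other 5 samples. This sample also had the highest Ccl24 value of the 6, and its limit was the highest too. The Ccr3 group means were 2.83 ± 1.16 and 2.77 ± 2.67 (SD, n = 3 each; two-sided exact permutation p = 1). The difference of 0.07 became 1.47 without that sample and -1.19 without E3, so no direction can be given.

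Ccr4 ran from 2.43 to 3.11 in P samples and from 2.42 to 3.09 in E samples, on 6 to 14 counts per sample. In none of the 6 samples was it above the limit of the negative controls. The means of 2.83 ± 0.36 and 2.76 ± 0.33 (SD, n = 3 each) differed by 0.07 (two-sided exact permutation p = 0.7), and a difference in Ccr4 was not detectable at this depth.

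**Figure D3:**
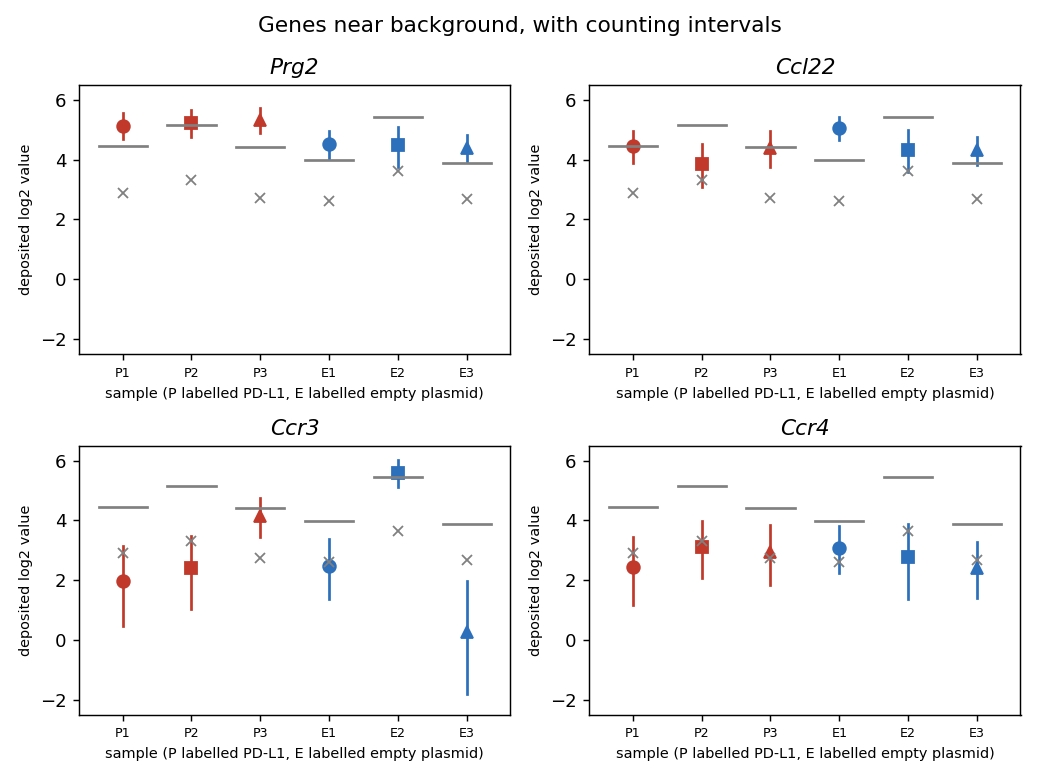
Log2 values (vertical axis) of Prg2, Ccl22, Ccr3 and Ccr4 in each sample (horizontal axis; red labelled PD-L1, blue labelled empty plasmid), with exact Poisson 95% counting intervals as vertical lines. Grey crosses are each sample's mean negative control and grey bars its mean plus 2 SD; Ccr3 reaches that bar only in E2, at 5.58, and Ccr4 in no sample.

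The label of an eosinophil axis was set beside a list of eosinophil and mast cell markers, of which 7 were on the panel. Prg2 and Ccr3 are on that list and also among the genes followed here, so it is not independent of them. Ccr3 lay under the background limit. Besides Prg2 only Tpsab1, a mast cell tryptase gene, passed the background limit, with means of 4.70 ± 0.17 and 4.81 ± 0.44 in the samples labelled PD-L1 and empty plasmid (SD, n = 3 each). Il5ra, the IL-5 receptor chain that marks eosinophils, lay under the limit with means of 4.16 ± 0.12 and 3.86 ± 0.10. The mast cell genes Fcer1a, Ms4a2 and Cma1 were under it as well. Among defining eosinophil genes, then, only Prg2 could be tested, and it passed the limit only through the PD-L1 group.

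Of 5 genes listed as further ligands of CCR3, 3 were tested. Whether mouse CCL8 uses this receptor is not settled here. Ccl7, for the monocyte attractant MCP-3, differed by 2.14 ± 0.75 (log2, SE, n = 3 per group; limma adjusted p = 0.264), with 7.07, 8.69 and 7.44 in P1, P2 and P3 and 6.06, 6.61 and 4.11 in E1, E2 and E3. Ccl8, for MCP-2, differed by 1.96 ± 1.24 (limma adjusted p = 0.479). Ccl5, for the T cell attractant RANTES, went the other way, with a difference of -1.78 ± 0.51 (limma adjusted p = 0.251). None of the 3 passed; Ccl28 and Ccl26 lay under the background limit.

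Type 2 cytokines, the alarmin Il25 and growth factors of eosinophils were near background: Il4, Il5, Il9, Il13, Il25, Il3 and Csf2 had means under the limit of 4.66. The highest of these 7 were Il25 at 3.58 over the 6 samples, and Il13 at 3.47. Of 10 receptor genes for such cytokines on the panel 8 were tested, with 2 higher and 6 lower means, a median difference of -0.17 and 0 past the adjusted threshold. The median over all 541 tested genes was -0.12. Il4ra, the shared chain of the IL-4 and IL-13 receptors, had the highest positive difference, 1.01 ± 0.30 (SE; limma adjusted p = 0.251). Il17rb, a chain of the IL-25 receptor, differed by -2.21 ± 0.65 (adjusted p = 0.251) and Il3ra, the IL-3 receptor chain, by -0.78 ± 0.30 (adjusted p = 0.291). Il17rb entered the test only through the empty plasmid group, as P samples averaged 3.56, under the background limit. The most abundant were Il1rl1, the IL-33 receptor, with means of 13.93 ± 1.16 and 13.85 ± 0.30, and Il13ra1 with 10.39 ± 0.43 and 10.50 ± 0.12 (SD, n = 3 each).

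Of 4 tested transcription factors of the type 2 response 1 had a higher mean and 3 a lower one, with a median of -0.25 and 0 past the threshold. Stat6 itself differed by -0.06 ± 0.22 (SE; limma adjusted p = 0.895) at means near 10.2, and Stat5b by -0.55 ± 0.27 (adjusted p = 0.342). Irf4 lay under the background limit.

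A list of macrophage genes, only some of which type 2 cytokines are known to induce, had a median difference of 1.89. Of 6 tested members 4 had higher and 2 lower means in the samples labelled PD-L1, and 0 passed. Cd163, a hemoglobin scavenger receptor gene, differed by 3.68 ± 1.33 (log2, SE, n = 3 per group; limma adjusted p = 0.272). Chil3, a chitinase-like gene, averaged 7.96 ± 2.09 in P samples and 4.31 ± 0.52 in E samples (SD; limma adjusted p = 0.251), the latter under the background limit. Mrc1, the mannose receptor gene, differed by 2.53 ± 0.53 and Cd200r1, an inhibitory receptor gene of myeloid cells, by 1.26 ± 0.39 (adjusted p = 0.225 and 0.256). Clec7a, the receptor gene for fungal beta-glucan, differed by -1.45 ± 0.56 (adjusted p = 0.291). Arg1, which hepatocytes also express, differed by -0.40 ± 1.43 (adjusted p = 0.892).

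The cells that could make or answer these chemokines were followed through marker lists, in each of which 0 members passed. Of 12 macrophage and monocyte genes 9 had higher means (median 0.30), among them Lyz2 at 1.41 ± 0.48 and Msr1 at 1.02 ± 0.38 (SE, n = 3 per group). Lower means were those of Cx3cr1 (-0.59 ± 0.58), Ccr2 (-0.09 ± 0.55) and Emr1 (-0.06 ± 0.34). The log2 of the list's summed linear values lay between 16.10 and 17.39 in P samples and between 15.70 and 16.13 in E samples. Lyz2 weighed most in that sum, so it largely follows this gene. Of 7 tested dendritic cell genes 3 had higher means (median -0.01), with Cd80 at 1.60 ± 0.36, Irf8 at -0.05 ± 0.27, Cd83 at -0.89 ± 0.58 and Cd1d1 at -2.32 ± 1.11 (SE, n = 3 per group). In the same list Itgax, Itgae, Ccr7, Flt3, Lamp3 and Xcr1 had 6-sample means under the limit. Itgae and Itgax averaged 4.95 and 4.68 in the empty plasmid group, above it, and 4.12 and 2.98 in the PD-L1 group. Of the others, Flt3 and Lamp3 had higher means in the PD-L1 group, and Ccr7 and Xcr1 lower ones. Of 10 fibroblast and matrix genes 5 had higher means (median 0.10). The log2 of the matrix list's summed linear values was 17.22, 16.46 and 16.49 in P1, P2 and P3. It was 16.43, 15.86 and 16.89 in E1, E2 and E3. P1, the highest in Ccl11, was also the highest in that sum, in which Vim weighed most (16.31 in P1). By gene, P1 was the highest in Vim, Col1a1, Col3a1 and Pdgfrb. It was not the highest in Fn1, Col4a1, Twist1, Tgfb3, Fap or Thy1. The part of these cell types in the chemokine values was not tested.

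Most markers of T cells, which carry CCR4, were under the background limit. Of 8 regulatory T cell genes only Ikzf2 passed the limit, with a difference of 0.47 ± 0.46 (SE; limma adjusted p = 0.646), and Foxp3, Il2ra, Ctla4, Tnfrsf18, Ccr8, Il10 and Tnfrsf4 did not. Of 10 T cell genes 2 were tested, Cd3d at -1.05 ± 0.46 and Cd3g at -1.54 ± 0.78 (adjusted p = 0.304 and 0.355). Cd3g passed the limit only through the empty plasmid group, its mean in the other being 4.51. Cd3e and Cd8a were not tested, though they averaged 5.24 and 4.75 in the empty plasmid group, above the limit. In the PD-L1 group they averaged 3.64 and 3.97. Cd4, also untested, was above the limit in the PD-L1 group only (4.71 against 4.56). All 9 endothelial genes had lower means in the samples labelled PD-L1 (median -0.57), as did 20 of 21 hepatocyte and plasma protein genes (median -2.83).

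**Figure D4:**
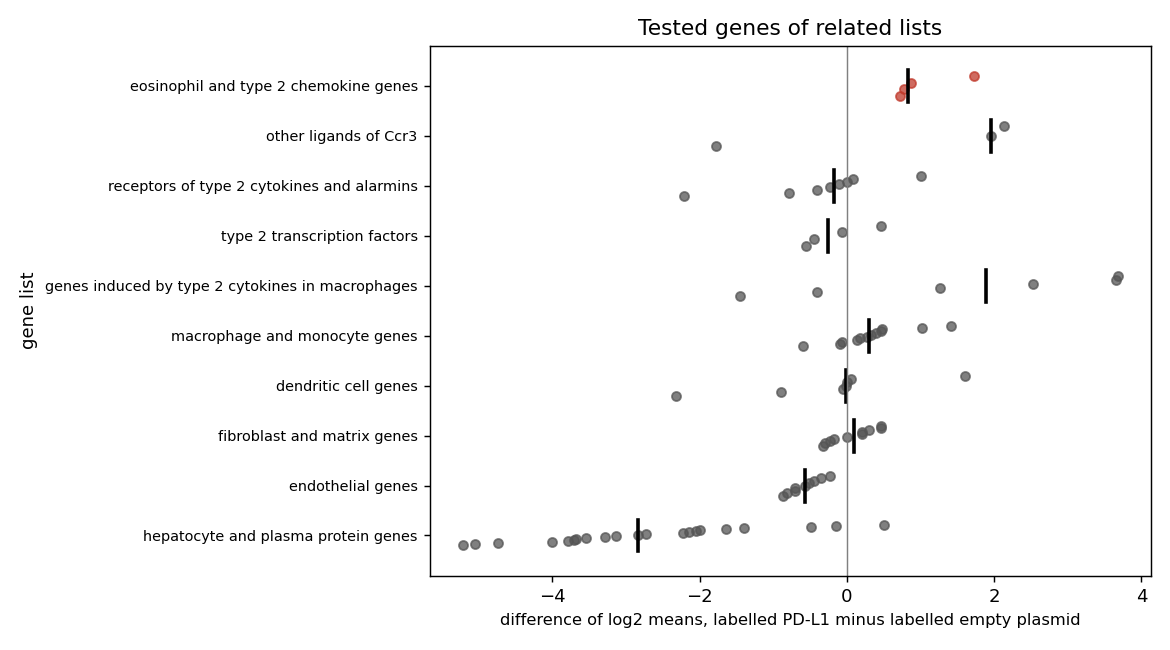
Difference of log2 means (horizontal axis, samples labelled PD-L1 minus samples labelled empty plasmid) of the tested genes of each list (vertical axis), as points, with the list's median as a black bar. The 4 tested chemokine and granule genes lie between 0.72 and 1.73, and the hepatocyte list has the lowest median, -2.83.

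The 4 tested genes ordered the samples differently: Ccl11 was highest in P1, Ccl24 in E2, and Ccl17 and Prg2 in P3. Likeness of pattern was taken as the root mean square distance between log2 values centred on each gene's mean, over 6 samples and 540 other tested genes, and is a description of samples that also share their tissue makeup. Ccl11 lay nearest to Thbs1 (0.34), Thbd (0.41) and Ppbp (0.44), the genes for thrombospondin-1, thrombomodulin and a platelet chemokine, against a median distance of 1.20. In Thbs1, Thbd and Ppbp, as in Ccl11, P1 was the highest sample, at 12.27, 10.45 and 6.75. Of these nearest genes only Ppbp had groups that did not overlap, as in Ccl11. Ccl17 lay nearest to the collagen gene Col3a1 (0.39), the integrin gene Itgam (0.39) and the Fc receptor gene Fcgr4 (0.41), against a median distance of 0.86.

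The nearest genes to Ccl24 were farther off: Hspb2 (0.55), for a small heat shock protein, the cytokine gene Il18 (0.70) and Tal1 (0.70), for a transcription factor of blood formation, against a median distance of 1.15. Prg2 lay nearest to C5ar1 (0.10), the receptor gene of the complement fragment C5a, then to the IL-18 receptor chain gene Il18rap (0.20) and the adenosine deaminase gene Ada (0.21), against a median distance of 0.64. C5ar1 stood at 9.76, 9.98 and 9.79 in P1, P2 and P3 and at 9.01, 8.95 and 8.97 in E1, E2 and E3, narrow and apart as Prg2 was. The distances of Prg2 to its nearest genes are no larger than its counting error (SD of 0.21 and 0.26 in the 2 groups). Their order is therefore not resolved. Among the 4 genes themselves the distances ran from 0.58 for Ccl17 and Prg2 to 1.35 for Ccl24 and Ccl17. The 0.58 was near the median distance of Prg2 to all genes (0.64) and under that of Ccl17 (0.86).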

How the data were processed

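Total RNA of 6 mouse liver tumor samples was hybridized to a NanoString panel without a dye label, per the labels' protocols. The deposited values are log2 values that the authors had scaled per sample; the basis of the scaling and the software are not given in the sources used here. Whole counts were recovered from the deposited values, since 2 to the power of each value equalled a whole number times a sample factor plus 0.158 (all values whole within 0.05). The lowest recovered count was 1, which may also stand for 0. A second deposited table held identical values for the 750 genes and 20 reference genes. A gene entered the test if its 6-sample mean reached 4.66 on the log2 scale (the 8 negative control probes' mean plus 2 SD), which kept 541 of 750 genes.

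Groups came from the sample titles and were compared with limma 3.58.1 in R 4.3.3 (lmFit, eBayes with trend, Benjamini-Hochberg at 0.05 over all tested genes). Differences are samples labelled PD-L1 minus samples labelled empty plasmid. Single values were also compared with two-sided exact permutation tests in scipy 1.17.1. The fit was checked on simulated data. The 7 genes and the lists of related genes were chosen with earlier results of these data known. Named genes of the ligand, receptor, transcription factor and macrophage response lists are those with an unadjusted p under 0.05 and the 2 with the highest mean; cell type marker lists are given by counts, with examples chosen after their values were seen. Pattern likeness took the 3 tested genes with the smallest root mean square distance from each tested member. Alternatives were other scalings, limits, constants and tests, a replicate block, a hepatocyte covariate and leaving out each sample.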

Additional observations from a re-analysis of the deposited data

How the results depend on the processing

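Ccl11, Ccl17 and Prg2 kept their direction in all 15 alternatives and passed the adjusted threshold in none; Ccl24 turned in 1. Adjusted p (limma) ran from 0.24 to 0.784 for Ccl11 and from 0.245 to 0.784 for Prg2. Leaving out 1 sample gave differences of 1.14 to 2.17 for Ccl11, 0.39 to 1.26 for Ccl17, 0.73 to 0.82 for Prg2 and -0.10 to 1.41 for Ccl24, whose -0.10 came without E1. Rescaled to the reference genes, 1 gene passed the adjusted threshold, F13a1, which is not among the 7. The 92 genes at an unadjusted p under 0.05 became 31 with the hepatocyte covariate and 38 to 92 without 1 sample, 38 without P2 and 53 without E3; the cause was not tested. Centring samples on their medians moved the median of all tested genes from -0.12 to 0.04. The labels do not say that replicate numbers pair the samples. Deviations of same-numbered samples correlated at 0.27, -0.20 and -0.13, which with 3 samples per group cannot decide it. With a replicate block the unadjusted count was 80, 0 genes passed, and the limma adjusted p was 0.292 for Ccl11 and 0.357 for Prg2. Low counts, at most 56 per sample, limited Ccl22, Ccr3, Ccr4 and Prg2.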

Other observations

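Genes next to the chemokine genes in RefSeq's table were looked up after the values were seen. Ccl11 lies on mouse chromosome 11 between Ccl7 and Ccl12, both for monocyte attractants. Like Ccl11, both stood higher in every sample labelled PD-L1 than in any other: Ccl12 by 2.41 ± 0.84 and Ccl7 by 2.14 ± 0.75 (log2, SE, n = 3 per group; limma adjusted p = 0.264 for each). Of all 541 tested genes 8.5% were apart in this direction. The order of the samples was not that of Ccl11, since P2 was the highest in Ccl7 (8.69) and Ccl12 (11.19) and the lowest of its group in Ccl11 (5.60). Cx3cl1, between Ccl22 and Ccl17 on chromosome 8, differed by -0.20 ± 0.43 (adjusted p = 0.845). Ccr2, beside Ccr3 on chromosome 9, was well measured where Ccr3 was not, with means of 10.27 ± 1.07 and 10.36 ± 0.40 (SD, n = 3 each).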
